A study of Mus musculus with 686 samples.

Results

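The lung was compared with 12 other tissues of ground-housed female BALB/cAnNTac mice by small RNA sequencing. Of the 686 libraries of the series, 234 came from ground animals whose tissues were taken in the live animal return (LAR) timing, and 20 of these were lung. The choice used only the tissue, arm and timing that the labels give. The HGC arm (habitat ground control, 113 libraries) lived in hardware habitats with the density, temperature, humidity and CO2 of the flight animals, and the VGC arm (vivarium ground control, 121 libraries) lived in standard cages. Mice were 3 or 8 months old at the start, and each arm and age gave 5 lung libraries, 1 per animal. The other tissues were brown (BAT), gonadal (GAT), mesenteric (MAT) and subcutaneous (SCAT) adipose tissue, brain, diaphragm, heart, kidney, liver, pancreas, spleen and thymus, with 8 libraries in brain, all from 3-month-old mice, and 15 to 20 in each of the others. The 28 animals of this timing were killed when the flight group that came back alive was, and their tissues were frozen fresh. The TERM timing, with carcasses frozen whole and dissected after thawing, is used here as a comparison with 18 ground lung libraries. Larger lungs were trimmed before extraction, so a library holds a piece of lung with airway, alveoli, vessels and blood in an unknown mixture. In such bulk samples fewer cells of a type and less RNA per cell cannot be told apart.

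A microRNA (miRNA) is a short RNA of which bases 2 to 8, the seed, pair with target transcripts, so miRNAs with the same seed form a family. In the airway epithelium, cells that carry many motile cilia use miRNAs of the miR-34b/c and miR-449 loci, which share one seed and act in the making of cilia. mmu-miR-126a is made from the Egfl7 gene of endothelial cells, the lining of the dense capillary bed of the lung. The lung also holds much blood, smooth muscle around airways and vessels, fibroblasts and resident leukocytes, each with miRNAs of its own.

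The sequences below are those of the miRNAs on which the lung results turn, from RefSeq on GRCm38.p6, with the seed in capitals. They are shown because most of them were higher in lung than in all other tissues, and because the arms of the miR-34 and miR-449 loci share seeds while the others each have their own. mmu-miR-34c-5p and mmu-miR-6981-3p are described below by name.
mmu-miR-34b-5p: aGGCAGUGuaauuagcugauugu
mmu-miR-449a-5p: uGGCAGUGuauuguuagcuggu
mmu-miR-449c-5p: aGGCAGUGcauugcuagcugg
mmu-miR-34b-3p: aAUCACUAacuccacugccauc
mmu-miR-34c-3p: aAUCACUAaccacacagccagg
mmu-miR-126a-3p: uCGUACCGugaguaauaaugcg
mmu-miR-351-5p: uCCCUGAGgagcccuuugagccug
mmu-miR-351-3p: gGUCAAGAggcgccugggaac
mmu-miR-24-2-5p: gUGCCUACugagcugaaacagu
mmu-miR-1199-5p: uCUGAGUCccggucgcgcgg
mmu-miR-1199-3p: uGCGGCCGgugcucagucggc
mmu-miR-3097-3p: cUCAGACCuuucuaccugucag
mmu-miR-12199-3p: aCACUGGUucucucuggcucu
The 5p arms of mmu-miR-34b, mmu-miR-449a and mmu-miR-449c carry GGCAGUG, and the 3p arms of mmu-miR-34b and mmu-miR-34c carry AUCACUA. On GRCm38.p6, mmu-miR-34b-5p lies at chr9:51103610-51103632 on the minus strand and mmu-miR-34c-3p at chr9:51103044-51103065, both inside an intron of Btg4, which is transcribed from the other strand. mmu-miR-449a-5p lies at chr13:113037549-113037570 on the plus strand in an intron of Cdc20b, a gene of the same strand. mmu-miR-126a-3p lies at chr2:26591402-26591423 on the plus strand, in an annotated exon of Egfl7 and an intron of the overlapping Gm20532.

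The lung libraries held 30.7 M to 173 M counts (M, mega) over the 7 RNA classes, with a median of 46.3 M, of which 4.28 M to 16.2 M counts were miRNA (median 7.36 M). By the correlation of centred log2 profiles over 746 miRNAs, 190 of the 234 libraries were closest to the median profile of their own labelled tissue, and 18 of 20 lung libraries were. The library labelled lung of VGC mouse 16 was closest to SCAT (r = 0.82, against 0.03 to lung), and that of VGC mouse 3 was close to no tissue (r = 0.27 to thymus, −0.09 to lung). The other 18 correlated with the lung profile at r = 0.854 to 0.961. Both libraries that stood apart came from 11 sequencing pools in which more than 1 in 3 libraries went against their labels in an earlier look at these data. Those pools held 50 of the 234 libraries and 4 of the lung libraries, all VGC, so the main results are given with them and without them. Other values are over all libraries unless stated. Without the 11 pools 184 libraries were left, with 16 of lung (10 HGC, 6 VGC), and 16 of 16 were closest to lung. The pools were chosen from the data themselves, so the agreement that is left is not independent evidence. Of the markers named for lung, mmu-miR-126a-3p and mmu-miR-34c-5p had their highest median in lung, while mmu-miR-449a-5p had a higher median in thymus.

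Both arms of mmu-miR-34b and mmu-miR-34c were higher in lung than in each of the 12 other tissues. Values are counts-per-million of the library's miRNA total (CPM), and a miRNA was called against a tissue at an adjusted p under 0.05 in edgeR's quasi-likelihood test with a log2 difference over 1. Of 1300 miRNAs tested, 13 were higher in lung against all 12 tissues (1%), and these 4 led them by the size of the smallest of their 12 differences. In lung mmu-miR-34b-3p was at 37.6 CPM in the lowest library, 1181 CPM at the median and 2415 CPM in the highest, against medians of 106 CPM in brain and 49.3 CPM in thymus. The lowest lung values, 37.6 and 232 CPM, belonged to VGC mouse 16 and VGC mouse 3. Without the 11 pools the 16 lung libraries lay between 863 and 2415 CPM, and no library of another tissue reached that range. The nearest of those was a thymus library at 557 CPM. The smallest log2 difference of mmu-miR-34b-3p was 3.30 ± 0.64 (standard error) against thymus (edgeR adjusted p = 2.87e-06), and it was 3.29 ± 0.39 without the pools. In HGC alone all 4 arms were called against the 12 tissues. In VGC alone and in TERM the arms of mmu-miR-34b were, while mmu-miR-34c-5p (largest of 12 edgeR adjusted p = 0.0572 and 0.0579) and mmu-miR-34c-3p (0.134 and 0.437) were not called against each of them.

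mmu-miR-34b-5p, the other arm of the hairpin, was at 6.27, 763 and 1546 CPM (lowest, median, highest) in lung, with 106 CPM at the median in brain, the next tissue. Without the pools lung was at 487 to 1546 CPM, and 1 library of another tissue, of thymus, passed the lowest of these. mmu-miR-34c-5p was at 12.5, 724 and 1112 CPM in lung against a median of 98.5 CPM in brain. Without the pools 3 libraries of other tissues lay above the lowest lung library, which held 294 CPM (HGC mouse 12), and none lay above the lung median. mmu-miR-34c-3p was at 59.8, 1396 and 3478 CPM in lung, and at 252 CPM at the median in brain. The smallest differences were 2.49 ± 0.51 for mmu-miR-34b-5p and 2.49 ± 0.55 for mmu-miR-34c-5p, both against thymus, and 2.45 ± 0.86 for mmu-miR-34c-3p against brain (edgeR adjusted p = 1.23e-05, 4.96e-05 and 0.0114). The 3p arms were the more abundant ones in lung, with a median log2 ratio of 5p to 3p of −0.53 for mmu-miR-34b and −1.01 for mmu-miR-34c. Thymus was uneven, since its libraries without the pools ranged from 15.8 to 557 CPM of mmu-miR-34b-3p and from 20.0 to 392 CPM of mmu-miR-34c-5p.

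**Figure D1:**
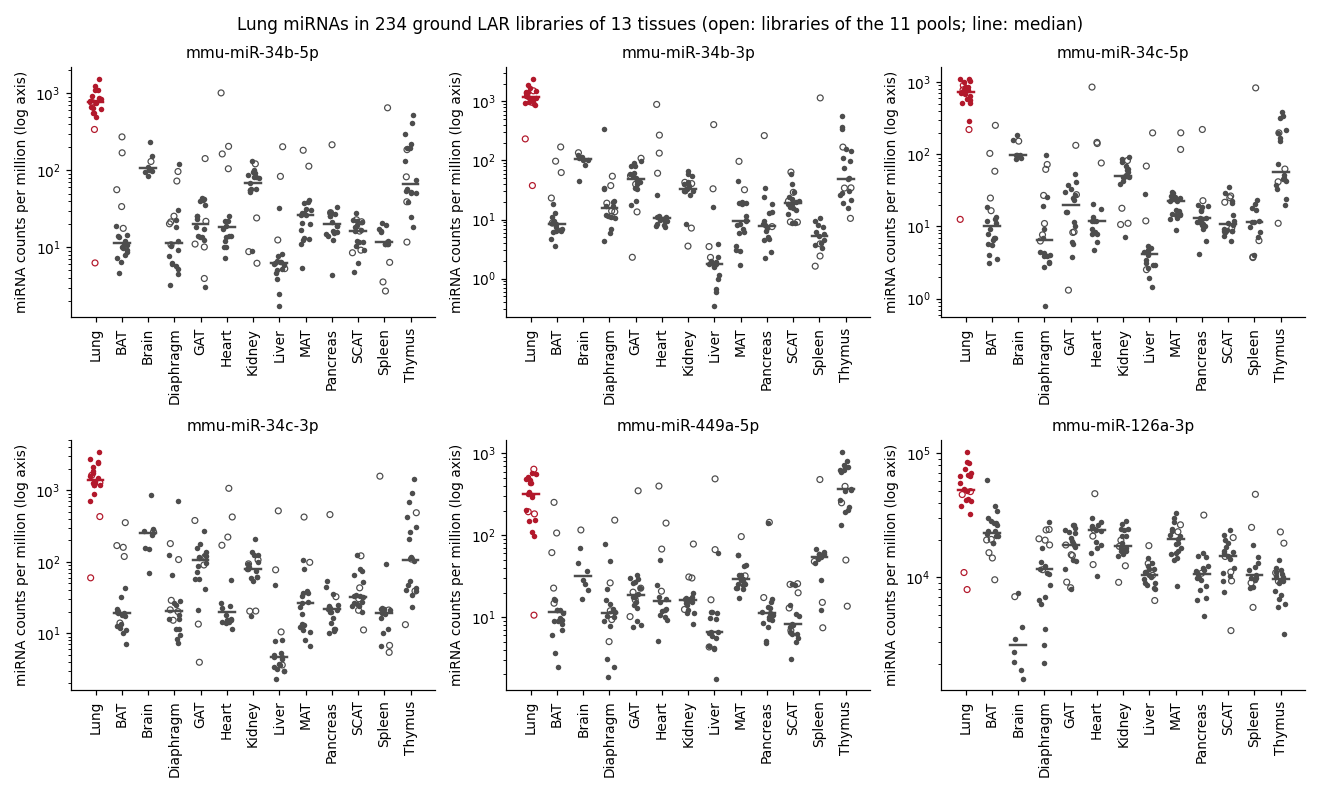
Each point is 1 of the 234 ground LAR libraries, with tissue on the x axis and miRNA CPM on a log y axis; lines are medians over all libraries of a tissue and open points are libraries of the 11 pools. Lung (red) stands above the other tissues for both arms of mmu-miR-34b and mmu-miR-34c, thymus reaches the level of lung for mmu-miR-449a-5p, and the heart and spleen libraries that reach lung levels of the miR-34 arms are open points.

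mmu-miR-449a-5p, which has the seed of mmu-miR-34b-5p, did not separate lung from thymus. In lung it was at 10.6, 316 and 640 CPM, and in thymus at 13.6, 366 and 1048 CPM, so the tissues overlapped over most of their range. The log2 difference of lung to thymus was −0.43 ± 0.46 (edgeR adjusted p = 0.467), and −0.54 ± 0.31 without the pools (edgeR adjusted p = 0.138). Against the other 11 tissues mmu-miR-449a-5p was higher in lung, the nearest being spleen with a difference of 2.24 ± 0.54. Between 9.15% and 34.2% of all miRNAs tested were called higher in lung against any 1 tissue. mmu-miR-449c-5p showed the same order at a lower level, with 0.196, 7.57 and 25.2 CPM in lung and a median of 11.0 CPM in thymus, and it was also called higher against 11 tissues and not against thymus (−0.26 ± 0.48, edgeR adjusted p = 0.707). The 3p arms of both were at a median of 0 CPM in lung and did not pass the filter on low counts, and mmu-miR-449b reached at most 0.433 CPM. Of the 9 miRNAs of the miR-34b/c and miR-449 loci, 7 were tested and 4 were higher in lung than in all 12 tissues. Their summed level was 127, 4996 and 6187 CPM in lung (3443 to 6187 CPM without the pools), and thymus was next at a median of 839 CPM. The median of the 7 log2 differences to the mean of the 12 tissues was 4.11, beside −0.25 over all 1300 miRNAs tested.

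mmu-miR-126a-3p, the endothelial miRNA of Egfl7, was the most abundant of the 13. It was at 7966, 50882 and 103170 CPM in lung, with medians of 23901 CPM in heart and 2830 CPM in brain. The lowest values, 7966 and 10930 CPM, were again those of VGC mouse 16 and VGC mouse 3. Without the pools the lung lay between 32628 and 103170 CPM, the highest other median was 26203 CPM in BAT, and 4 libraries of other tissues passed the lowest lung library. The smallest difference was 1.11 ± 0.20 against BAT (edgeR adjusted p = 1.35e-06) and 1.11 ± 0.19 without the pools, so its lead was narrower than that of the miR-34 arms. It passed the log2 threshold of 1 by little, and with TMM scaling the smallest difference was 0.87 and in VGC alone 0.88. The 5p arm of the same hairpin, mmu-miR-126a-5p, had a lung median of 2728 CPM, also the highest of the 13 tissues, and was called higher against 7 of 12. mmu-miR-126b is read from the opposite strand of that locus and did not share the pattern, since its 3p arm was at a median of 1.03 CPM in lung and lower there than in 7 tissues.

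The other 8 miRNAs higher in lung were less abundant, and none of them was called against all 12 tissues in TERM. mmu-miR-351-5p, of the X chromosome (chrX:53053315-53053338 on the minus strand, in no annotated gene), was at 85.6, 472 and 939 CPM in lung and at 202 CPM at the median in kidney, the nearest tissue (difference 1.23 ± 0.28, edgeR adjusted p = 1.68e-04). Its other arm mmu-miR-351-3p was at 0 to 8.22 CPM (median 4.74) with a difference of 1.55 ± 0.45 to SCAT. mmu-miR-24-2-5p (chr8:84208839-84208860 on the plus strand) was at 47.0, 199 and 449 CPM, against 92.7 CPM in spleen (difference 1.09 ± 0.22). Its sister arm is mmu-miR-24-3p, one of the 10 most abundant miRNAs of lung, and the log2 ratio of the minor to the major arm was −7.53 at the median.

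mmu-miR-3097-3p, in an intron of Rgs12, was at 2.57, 10.5 and 19.3 CPM in lung and at a median of 3.83 CPM in brain. Without the pools no library of another tissue reached its lowest lung value of 6.62 CPM. mmu-miR-1199-5p, in an exon of 2210011C24Rik, was at 0.39, 14.2 and 24.8 CPM, against a median of 6.31 CPM in kidney (difference 1.24 ± 0.50, edgeR adjusted p = 0.0399), and mmu-miR-1199-3p was at 0 to 7.47 CPM (median 1.74). mmu-miR-12199-3p (median 0.659 CPM) and mmu-miR-6981-3p (median 0.262 CPM) rested on few reads, with medians of 5 and 2 reads per lung library. Both lost their call with the animal as a block. Without the 11 pools the same 13 miRNAs were higher against all 12 tissues, of 1277 tested (1.02%).

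**Figure D2:**
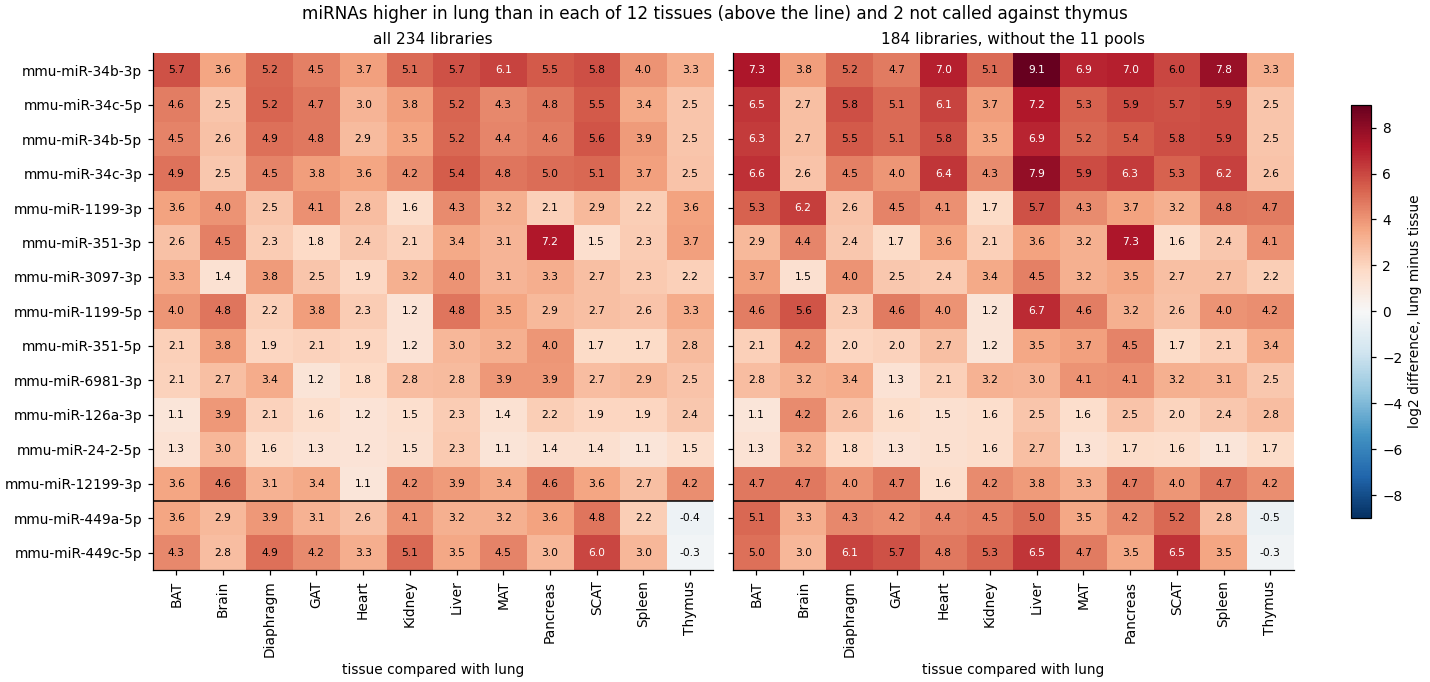
Each cell is the fitted log2 difference of lung minus the tissue named on the x axis, for the 13 miRNAs higher in lung (above the line) and mmu-miR-449a-5p and mmu-miR-449c-5p, over all 234 libraries (left) and without the 11 pools (right). Thymus and brain are the nearest tissues for the miR-34 arms, kidney for the miR-1199 arms and mmu-miR-351-5p, and differences to a tissue with few or no reads depend on the fit's prior count.

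No miRNA was lower in lung than in all 12 tissues by edgeR, and none was at an unadjusted p under 0.05 in all 12. DESeq2 also gave 0, with 2 at an unadjusted p.

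The 10 most abundant miRNAs of lung held 59.4% of its miRNA counts at the median (50.4 to 65.3%). mmu-miR-26a-5p, encoded in introns of Ctdspl and Ctdsp2, led with a median of 105600 CPM, the highest of the 13 tissues, and was called higher against 4 of 12. mmu-let-7c-5p, mmu-let-7b-5p, mmu-let-7a-5p and mmu-let-7d-5p belong to the let-7 family, whose members differ in few bases and may share reads. The family summed to 29.0% of lung miRNA counts, the fifth level among the tissues. mmu-miR-451a of red blood cells had a median of 71212 CPM, behind spleen with 87043 CPM. mmu-miR-181a-5p was at 39878 CPM, behind thymus with 196500 CPM and another tissue. mmu-miR-24-3p had its highest median in lung, 32606 CPM, and was called higher than in 10 of 12 tissues. Summed by seed over the miRNAs matched to RefSeq, lung ranked first for UCAAGUA (mmu-miR-26a-5p and mmu-miR-26b-5p, 11.0% of counts), CGUACCG (mmu-miR-126a-3p, 5.09%) and GGCUCAG (mmu-miR-24-3p, 3.26%). For GGCAGUG the 4 matched members (mmu-miR-34a-5p, mmu-miR-34b-5p, mmu-miR-449a-5p and mmu-miR-449c-5p) held 0.288% of lung counts, a sum that does not hold the 724 CPM of mmu-miR-34c-5p, and brain had the highest share of these 4.

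Lists of miRNAs known from single cell types were summed in each library. The 10 arms of the miR-200 family, which mark epithelium, summed to a median of 16980 CPM in lung, the fourth highest level, with pancreas at 87050 CPM and heart lowest at 196 CPM. mmu-miR-200c-3p was the largest of them at 9695 CPM and was higher in lung than in 6 tissues and lower than in 1, and none of the 10 was higher against all 12. Endothelium (mmu-miR-126a and mmu-miR-126b arms) summed to 53910 CPM, the highest level, with heart next at 25260 CPM. Most of this sum was mmu-miR-126a-3p (50882 CPM), and 1 of the 4 members was higher against all 12 tissues. The median of the 4 log2 differences to the mean of the 12 tissues was −0.22, beside −0.25 over all miRNAs tested. Without the pools these were −0.43 and −0.20, and the sum was 63740 CPM with BAT next at 28000 CPM. The leukocyte list reached 13640 CPM, the fourth level, and spleen 91280 CPM. Within it mmu-miR-146a-5p (3568 CPM) and mmu-miR-146b-5p (572 CPM), which respond to inflammatory signalling, were higher in lung than in 8 and 9 tissues, whereas mmu-miR-150-5p of lymphocytes (6993 CPM) was higher than in 1 (2 with the animal as a block) and mmu-miR-155-5p (218 CPM) was lower than in 6. Without the pools mmu-miR-146a-5p was higher than in 9 tissues.

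Red cell miRNAs summed to 71780 CPM, next to spleen with 88320 CPM. Smooth muscle miRNAs, led by mmu-miR-143-3p at 40633 CPM and mmu-miR-145a-5p at 11606 CPM, summed to 49720 CPM, behind MAT and another tissue. The mesenchyme list (miR-199, miR-214 and miR-218) was second at 17690 CPM, close to SCAT with 19420 CPM, and mmu-miR-214-3p (1298 CPM) was higher in lung than in 9 tissues. mmu-miR-199a-3p and mmu-miR-199b-3p have the same mature sequence, as their near-equal values of 7957 and 7953 CPM show, and their reads cannot be told apart.

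The miRNAs of the HOX gene clusters, which follow position along the body axis, divided in lung. mmu-miR-10a-5p was at 2731 CPM, second to kidney and higher than in 9 tissues, while mmu-miR-10b-5p (63.2 CPM), mmu-miR-196a-5p (1.01 CPM) and mmu-miR-196b-5p (11.8 CPM) were each lower in lung than in 8 tissues. With the animal as a block mmu-miR-196b-5p was lower than in 5. Of the cardiac myosin miRNAs, mmu-miR-208b-3p was at 29.4 CPM in lung, next in rank to heart (60.0 CPM) and another tissue, and higher than in 9 tissues. mmu-miR-208a-3p was at 23.7 CPM, with 914 CPM in heart.

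The miRNAs of liver, brain, pancreas and kidney were low in lung, while those of striated muscle were in the middle of the tissues. The muscle list (7 miRNAs) summed to 3622, 5446 and 53090 CPM in lung, the seventh level, with diaphragm highest at 368900 CPM and liver lowest at 659 CPM. Its largest member in lung was mmu-miR-133a-3p at a median of 4494 CPM, called higher than in 1 tissue and lower than in 5. mmu-miR-122-5p of hepatocytes was at a median of 55.4 CPM (347540 CPM in liver), the brain list at 104 CPM (217400 CPM in brain), the acinar pancreas list at 2.08 CPM (35990 CPM in pancreas) and the kidney and gut list at 590 CPM (95950 CPM in liver). Single libraries held far more, among them the 2 that stood apart. VGC mouse 3 held 8633 CPM of the neuronal mmu-miR-124-3p, 447 CPM of the pancreatic mmu-miR-217-5p and 4574 CPM of the muscle miRNA mmu-miR-206-3p. VGC mouse 16 held 16989 CPM of mmu-miR-205-5p, a miRNA of stratified epithelium, and 10822 CPM of mmu-miR-206-3p. Outside the pools HGC mouse 5 held 5727 CPM and HGC mouse 14 held 1492 CPM of mmu-miR-206-3p, beside a lung median of 17.2 CPM. VGC mouse 11, also outside the pools, held 20979 CPM of mmu-miR-133a-3p and 3369 CPM of mmu-miR-1a-3p (lung median 572 CPM), and VGC mouse 4 held 329 CPM of mmu-miR-124-3p. The part of such RNA in the lung results was not tested.

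**Figure D3:**
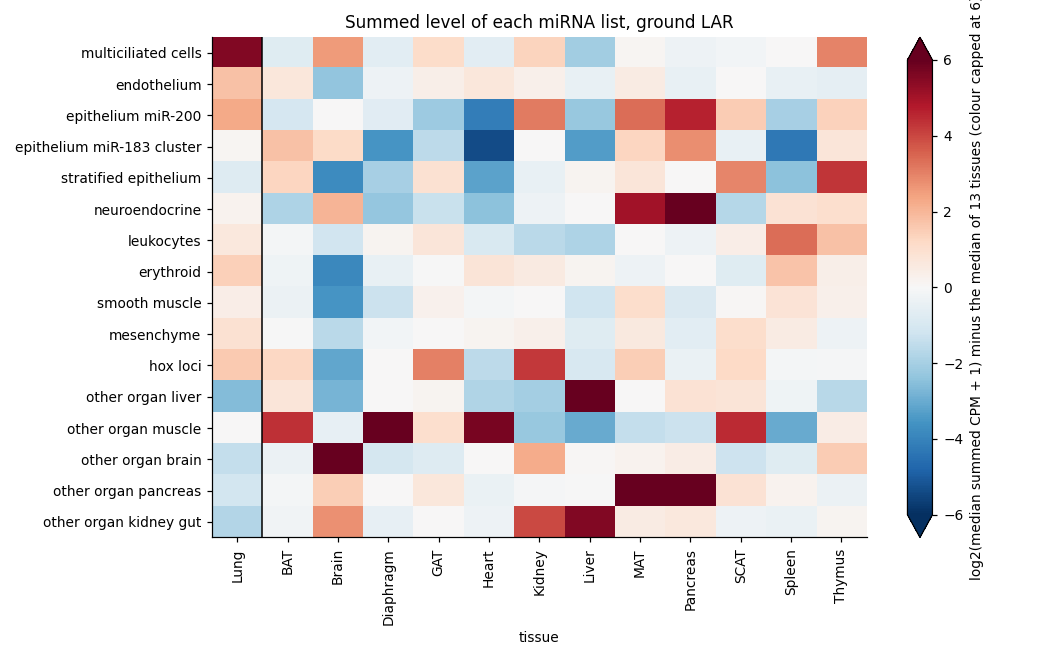
Each cell is the log2 of the median summed CPM (plus 1) of a miRNA list in a tissue, minus the median over the 13 tissues for that list, for all 234 libraries; colours stop at 6. In the lung column the multiciliated list stands out most, endothelium is also the highest of its row, and the liver, pancreas and kidney lists are below the middle of theirs.

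By the number of miRNAs called against it, heart was the tissue nearest to lung and brain the farthest. Against heart 366 of 1300 miRNAs were called, 175 higher in lung (13.5%) and 191 lower (14.7%), and against brain 644, with 234 higher (18%) and 410 lower (31.5%). Between them lay kidney with 402 and liver with 602, where most were higher in lung (445 against 157). The order depended on the pools, without which kidney was nearest with 440 of 1277 and heart had 509. Lung had more miRNAs lower than higher against 10 of the 12 tissues over all libraries, all but diaphragm and liver, and against 8 without the pools, where heart (369 higher, 140 lower) and kidney (229 higher, 211 lower) turned. This direction depended on the scaling. With TMM factors kidney (269 higher, 152 lower), MAT (256 higher, 227 lower) and pancreas (303 higher, 212 lower) turned to more higher in lung, and diaphragm to more lower (204 higher, 292 lower). With libraries scaled to the 7-class total, 11 tissues had more miRNAs higher in lung, and brain alone had more lower (297 higher, 327 lower). With DESeq2 liver (229 higher, 238 lower) and diaphragm (93 higher, 318 lower) turned to more lower in lung, and kidney to an even split (180 higher, 179 lower).

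As background for each count of tissues given here, the shares of all 1300 miRNAs called higher and lower in lung were 15.5% and 23.8% against BAT, 9.15% and 26.8% against GAT, 12.3% and 25.1% against MAT and 11% and 21.7% against SCAT. Against the muscle and lymphoid tissues they were 20.2% and 18.5% against diaphragm, 13.5% and 14.7% against heart, 13.3% and 23.2% against spleen and 11.8% and 25.5% against thymus. Against the other organs they were 18% and 31.5% against brain, 15.1% and 15.8% against kidney, 34.2% and 12.1% against liver and 14.3% and 22.2% against pancreas. More miRNAs were lower than higher in lung against each of the 4 adipose tissues, but with the 7-class total all 4 reversed, to 483 higher and 187 lower against BAT, 871 and 53 against GAT, 706 and 69 against MAT and 797 and 62 against SCAT. Without the pools the same shares, of 1277 miRNAs, were 18.2% and 22.6% against BAT, 12.8% and 30.9% against GAT, 13.7% and 30.1% against MAT and 12.9% and 25.2% against SCAT. They were 33.6% and 19.6% against diaphragm, 28.9% and 11% against heart, 15% and 30.1% against spleen and 14.8% and 29.5% against thymus, and 20.1% and 34.1% against brain, 17.9% and 16.5% against kidney, 40.2% and 12.3% against liver and 15.2% and 25.9% against pancreas. Diaphragm and heart gained most in miRNAs higher in lung when the pools were left out.

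The median log2 difference to the mean of 12 tissues over all tested miRNAs was −0.25, −0.13 with TMM scaling and 0.75 when libraries were scaled to the 7-class total. The lead of the miR-34 arms was far larger than this shift, with a median for the multiciliated list of 4.23 with TMM and 5.19 with the 7-class total. For the leukocyte list the median was −0.24, −0.02 and 1.04 in turn, so it gave no direction. As a description over 904 miRNAs, the centred median profile of lung was closest to kidney (r = 0.254, and 0.284 over 923 miRNAs without the pools), followed by thymus (0.121). All libraries of an animal share its history, and tissues shared pools and plates.

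The spread of counts over miRNAs was expressed as the effective number, which is 2 to the power of the Shannon entropy of the shares and equals the number of equally abundant miRNAs with the same entropy. It was 39.3 ± 3.66 (SD, n = 20) in lung, with libraries from 33.0 to 47.2. It was higher than in liver (25.6), diaphragm (29.0), heart (32.1) and BAT (34.1), and lower than in kidney (45.6), MAT (52.1) and pancreas (53.1), by permutation tests adjusted over 12 tissues. Paired by animal, the difference to heart did not pass (8 pairs, exact sign-flip permutation adjusted p = 0.0938) and the other 6 did. The effective number did not pass the threshold against the other 5, such as thymus with 39.1 ± 8.00 (permutation adjusted p = 0.970). Without the pools it was also lower than in spleen. With each library thinned to 430807 miRNA counts, lung had 349 ± 19.0 miRNAs at 5 reads or more, brain 435 and liver 302.

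The share of the 7 classes in lung was marked by its miRNA content. miRNAs took 2.95, 15.5 and 24.3% of the counts (lowest, median, highest), with a mean of 15.8% ± 5.44 (SD, n = 20). Heart had the same mean, 15.8% ± 4.64 (n = 16, permutation adjusted p = 0.992), and the other 11 tissues were lower, from 2.71% in pancreas and 2.94% in GAT to 12.7% in liver. The lowest lung values belonged to libraries of the pools, and without them the range was 12.0 to 24.3%, the mean 17.7% ± 3.69 and the count of lower tissues again 11. Paired by animal, with sign-flip permutation tests, the miRNA share was higher than in 7 tissues, BAT, diaphragm, GAT, MAT, pancreas, SCAT and thymus.

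tRNA counts took 13.7% at the median, but 77.6% in VGC mouse 16 at the top. The share was lower in lung than in BAT, GAT, MAT and SCAT, the last at 66.8% ± 13.7. It was higher than in liver over all libraries, whereas without the pools it was higher than in brain and spleen and lower than in the adipose tissues and diaphragm. rRNA took 19.2% at the median, above 7 tissues and below diaphragm, MAT and pancreas (49.0% ± 14.0). snRNA took 13.0%, above the adipose tissues, diaphragm and pancreas, and below kidney, liver, spleen and thymus (21.8% ± 6.30). snoRNA took 20.9%, above the adipose tissues and diaphragm, and below spleen, thymus and brain, where its share was 49.0% ± 16.1. lncRNA counts took 10.7% and piRNA counts 2.12%, with piRNA higher in lung than in brain and spleen and lower than in 7 tissues. Paired by animal, the tRNA share did not pass the test against liver and MAT, rRNA against brain, kidney and spleen, snRNA against spleen, snoRNA against brain and spleen, piRNA against brain and spleen, and lncRNA against heart and pancreas (permutation adjusted p = 0.0518 to 0.697). Only 6 pairs with brain and 8 with spleen or heart were left, and 6 pairs cannot give an unadjusted p below 0.03125.

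**Figure D4:**
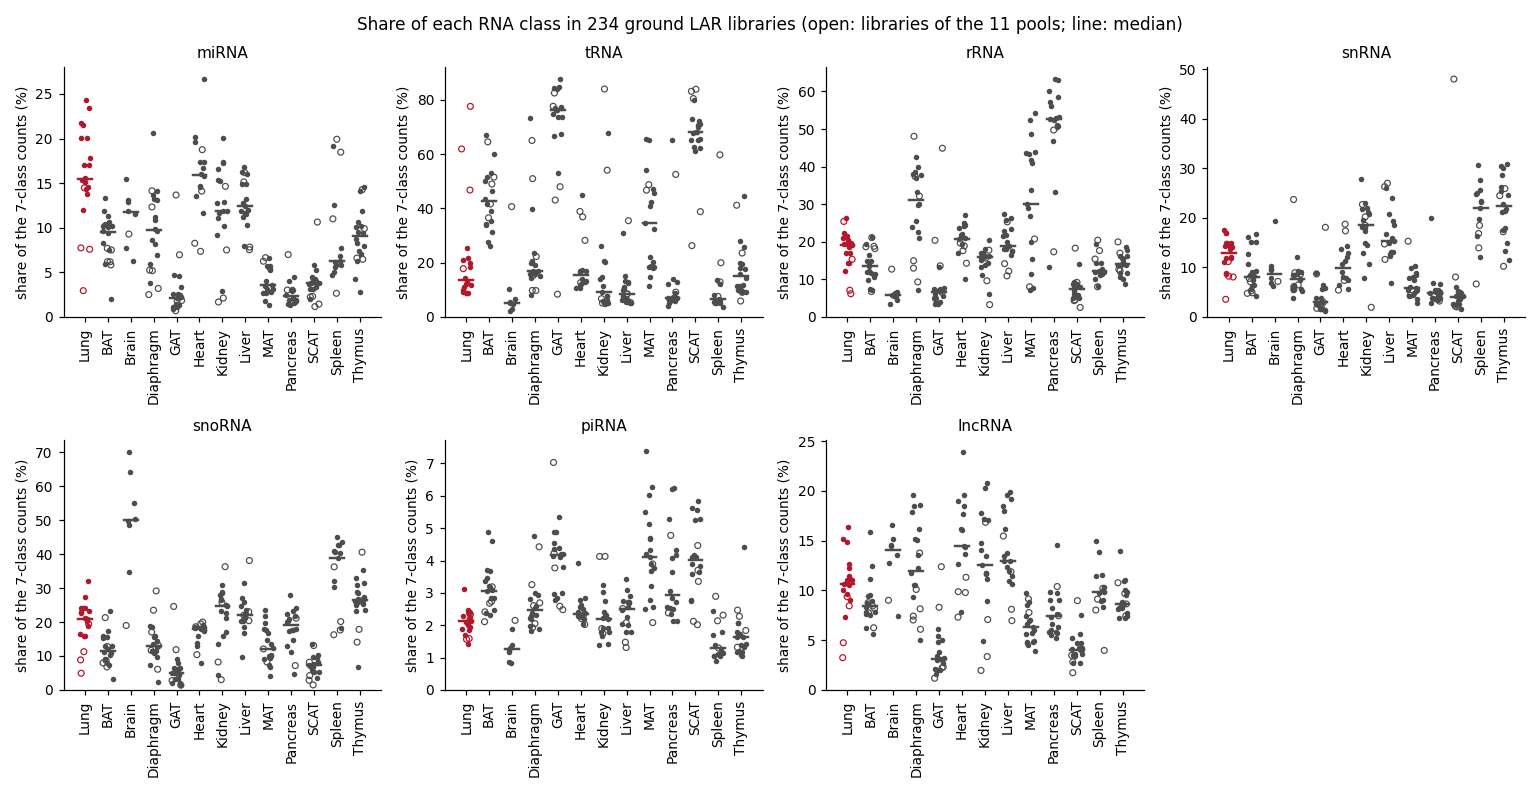
Each panel gives the share of 1 RNA class in the counts of the 7 classes, in percent on the y axis, for the 234 libraries by tissue; lines are medians and open points are libraries of the 11 pools. Lung and heart have the highest miRNA shares, and the lung libraries with high tRNA and low miRNA shares are open points.

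Few features of the other 6 classes were higher in lung than in all 12 tissues. Among 408 tRNA, 284 rRNA and 903 snRNA features tested by edgeR, 0 were higher and 0 lower, also at an unadjusted p under 0.05. DESeq2 was run on miRNAs alone. Many of these rows are copies of one gene with identical counts, so that the 408 tRNA rows held 224 distinct ones, and tRNA-Glu-CTC copies (55739 CPM of the class total each) led the tRNAs. The leading snRNA rows were U1 copies at 26714 CPM each, and the leading rRNA row was CT010467.1 at 63967 CPM, for which lung was the lowest of the 13 tissues.

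Among snoRNAs, which guide modification of other RNAs, Gm25852 (chr6:97547438-97547567 on the minus strand, GRCm38) was the 1 feature higher in lung. It was at 15.6, 109 and 144 CPM of the snoRNA total in lung and at 31.3 CPM at the median in SCAT, with a difference of 1.58 ± 0.34 (edgeR adjusted p = 2.195e-04). Without the pools its lung libraries lay above every library of the other tissues. The most abundant snoRNAs of lung were Snord80 (30070 CPM), Snord42a (28728 CPM), Gm26330 (25265 CPM), Gm26224 (24430 CPM) and Snord55 (23711 CPM), and of these lung had the highest median for Snord55.

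Among piRNA entries, oocyte_piRNA1714 (median 29676 CPM of the class) and oocyte_piRNA311 (198200 CPM) were higher in lung, the latter not with the animal as a block (log2 difference 0.94). piRNAs are germline RNAs, and entries among them followed miRNAs across the 234 libraries. On a log2 scale oocyte_piRNA1714 correlated with mmu-miR-126a-3p at r = 0.987, oocyte_piRNA311 with mmu-miR-23a-3p at r = 0.971 and oocyte_piRNA2529, which joined without the pools, with mmu-miR-199b-3p at r = 0.999. oocyte_piRNA164 also joined without the pools (smallest log2 difference 1.12), and its correlation with miRNAs was not computed. In lung the ratio of oocyte_piRNA1714 to mmu-miR-126a-3p counts stayed between 0.0448 and 0.0810. These correlations describe libraries that share depth and preparation, and whether the entries hold the same reads as the miRNAs was not tested.

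Among lncRNAs, 4 transcripts were higher in lung, and 3 belong to genes next to regulators of lung development. Sfta3-ps, beside Nkx2-1, had 2 transcripts with differences of 2.34 ± 0.62 and 2.26 ± 0.61 to spleen (edgeR adjusted p = 6.21e-03 and 6.96e-03; one spans chr12:56490428-56529260 on the minus strand). Fendrr, beside Foxf1 (chr8:121058803-121060413 on the minus strand), had a difference of 2.11 ± 0.58 to heart (edgeR adjusted p = 0.0127). These rested on few reads, with medians of 3.5 and 5 reads per lung library for Sfta3-ps and 3 for Fendrr, and values from 0 to 3.46 CPM of the lncRNA total. The fourth was Gm44621 (1.41), named here after its value was seen, and its call was lost with the animal as a block (1.285, edgeR adjusted p = 0.0769). Without the pools the same 4 were higher, but only 2 lncRNAs were with the animal as a block as well. Not all transcripts of Sfta3-ps and Fendrr therefore kept their call there. 2810404M03Rik was lower in lung than in all 12 tissues, by 1.33 or more on the log2 scale, at 0 to 3.00 CPM against 12.2 CPM in kidney. It too rested on few reads (median 2.5 per lung library, 4 of 20 libraries at 5 reads or more). Its call was lost with the 7-class total, in VGC alone, with plate as a term and in TERM, where the highest of the 12 fitted log2 differences was 1.21.

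Of the 10 most abundant lncRNA entries of lung, 3 contain miRNA genes. Lncppara (214420 CPM) holds the mature let-7c-5p and let-7b-5p sequences and followed mmu-let-7c-5p at r = 0.994 over the 234 libraries, with a lung ratio of counts between 1.47 and 1.90. 6720427I07Rik (161650 CPM) holds let-7a-5p, let-7d-5p and let-7f-5p and followed mmu-let-7a-5p at r = 0.995. 4833445I07Rik holds mmu-miR-191-5p and mmu-miR-425-5p and followed mmu-miR-191-5p at r above 0.999, with a ratio of 1.04. Snhg1, Sfta3-ps, Fendrr and 2810404M03Rik hold no mature miRNA sequence.

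Within lung the housing arms were compared with age as a covariate, and the ages with arm as a covariate. Between HGC and VGC no miRNA of 1031 was called by edgeR at an adjusted p under 0.05, 83 were at an unadjusted p under 0.05, and DESeq2 called 5. mmu-miR-34b-3p was at 863, 1126 and 2415 CPM in HGC and at 37.6, 1295 and 1911 CPM in VGC, and mmu-miR-126a-3p had medians of 61474 CPM and 44868 CPM, with overlap in both cases. Of 794 snRNA features 3 were called, Gm23645, Gm22753 and Gm25512 (named here after their values were seen), and 0 without the pools. Whether the distance of lung from the mean of the 12 tissues differed with housing was tested as an interaction. It gave 12 miRNAs, all with a lower value in HGC, and 0 without the 11 pools, where the 2 libraries that stood apart are left out.

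Between 8 and 3 months no miRNA was called over all 20 libraries by edgeR, with 85 at an unadjusted p under 0.05 and 0 by DESeq2. Without the pools 2 of 963 were called, both lower at 8 months and both from the miR-449 locus. mmu-miR-449a-5p was at 313, 479 and 573 CPM in 8 libraries of 3-month-old mice and at 99.0, 179 and 335 CPM in 8 libraries of 8-month-old mice. In these libraries the ages overlapped only between 313 and 335 CPM. The log2 difference was −1.21 ± 0.26 (edgeR adjusted p = 0.0298), beside −1.30 ± 0.37 over all 20 libraries (edgeR adjusted p = 0.456). mmu-miR-449c-5p was at 4.09, 17.4 and 25.2 CPM at 3 months and at 2.88, 4.52 and 11.9 CPM at 8 months, with a difference of −1.54 ± 0.33 (edgeR adjusted p = 0.0298). The lung library of VGC mouse 2 (3 months) was left out with the pools, though it was close to the lung profile (r = 0.942). It held 182 CPM of mmu-miR-449a-5p and 4.43 CPM of mmu-miR-449c-5p, both inside the 8-month ranges. The miR-34 arms did not pass the test, with differences between −0.05 and 0.23. mmu-miR-34b-3p had medians of 1187 and 1330 CPM at 3 and 8 months.

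The ages of the TERM lungs were compared after the first fits had been seen. In the TERM lungs outside the pools mmu-miR-449a-5p was at 275, 396 and 560 CPM in 5 libraries at 3 months and at 150, 186 and 234 CPM in 4 libraries at 8 months, without overlap. The difference of −1.06 ± 0.32 had an unadjusted p of 0.00290 and an edgeR adjusted p of 0.132, and no miRNA of 874 was called, with 126 at an unadjusted p under 0.05. mmu-miR-449c-5p had a difference of 0.56 ± 0.40 there, in the other direction. Of the miR-34 arms, mmu-miR-34b-5p was at 0.90 ± 0.31 (unadjusted p = 0.00805, edgeR adjusted p = 0.196) and mmu-miR-34b-3p at 0.69 ± 0.28 (unadjusted p = 0.0212, edgeR adjusted p = 0.272), where the LAR lungs had differences near 0, and neither passed the adjusted threshold. Over all 18 TERM lungs mmu-miR-449a-5p overlapped between ages, at 9.49 to 560 CPM at 3 months and 5.64 to 234 CPM at 8 months. Its difference was −1.34 ± 0.83 (unadjusted p = 0.123, edgeR adjusted p = 0.774), and that of mmu-miR-449c-5p was −0.01 ± 0.88. In LAR thymus without the pools mmu-miR-449a-5p had medians of 691 CPM at 3 months (n = 7) and 270 CPM at 8 months (n = 9), a difference that was not tested. The TERM libraries also differ from LAR in time of death and in freezing, which cannot be told apart.

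**Figure D5:**
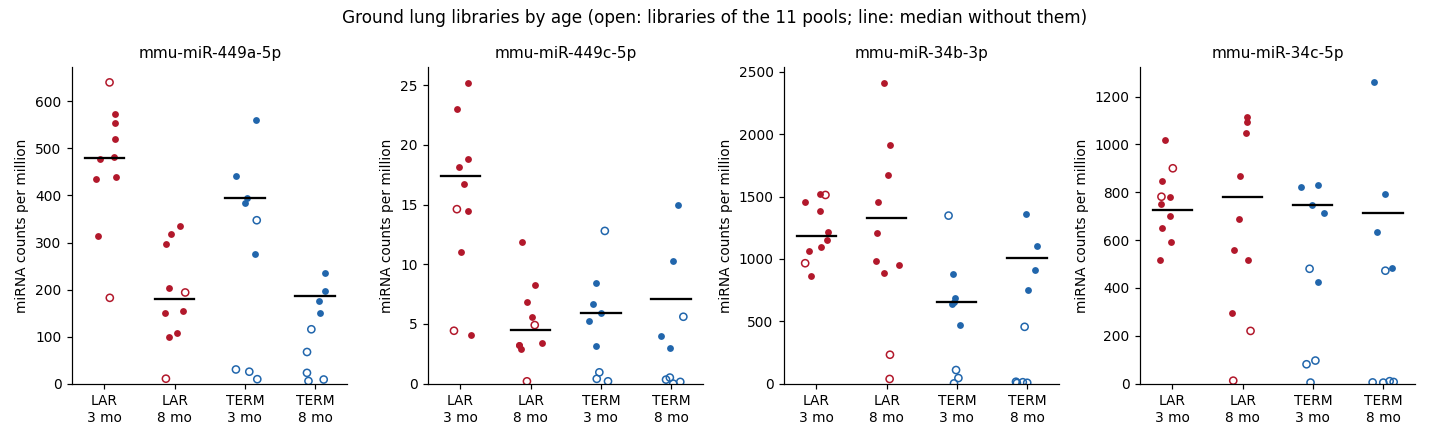
Each point is a ground lung library, with timing and age in months on the x axis and miRNA CPM on the y axis; open points are libraries of the 11 pools and lines are medians without them. mmu-miR-449a-5p is lower at 8 months in both timings outside the pools, mmu-miR-449c-5p in LAR, and mmu-miR-34b-3p and mmu-miR-34c-5p overlap between ages.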

How the data were processed

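Small RNA libraries from 686 mouse samples were read on a single-end sequencer after adapter ligation and PCR without stated molecular identifiers, so counts are not independent molecules. The authors deposited tables of estimated counts per miRNA, some divided between miRNAs, after mapping to GRCm39 and a miRNA database with miRMaster, and raw count tables of the other 6 classes used here. The reference of those classes is not given in the sources used here. Circular RNA and scaRNA tables were not used. Columns were matched to samples by the library name in the description, and estimated counts were rounded to whole numbers.

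Each class was scaled to its own class total. The filter kept features that reached 5 reads in 10% or more of the libraries of any group of one tissue and arm, and these were tested with edgeR 4.0.16 (R 4.3.3; glmQLFit, robust, arm as covariate), with Benjamini-Hochberg adjustment per contrast over all features tested. DESeq2 1.42.0 was run on miRNAs as an alternative. Shares and effective numbers were compared with 2-sided permutation tests (numpy 2.4.6, 100000 resamples, exact where a tissue had fewer than 10 libraries). The lung means the 20 ground LAR libraries, and every comparison with a tissue used the same fit over 234 libraries. Plate and pool come from the study's sample sheet, and the 11 pools left out were chosen from the data.

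The members, lists, pools and the rule for named features (list miRNAs, the 10 most abundant features of lung per class, features called against all 12 tissues, leading seeds) were chosen with earlier results of these data known. Tissues of one arm with the same mouse number came from the same animal per the labels, which pairs the samples. Deviations of same-animal pairs from their tissue medians correlated at a median r of 0.015 (1098 pairs, 851 miRNAs) and those of other pairs at 0.001, and 29.3% of same-animal pairs were over 0.1. Where the block changed a call on features, shares or the effective number, its value or the count of calls is given. On simulated counts of 1193 miRNAs, 83.7% of those raised 8-fold and 32% of those raised 4-fold in lung were called against all 12 tissues, and 0% of unchanged ones. Mature sequences and positions come from RefSeq and GENCODE on GRCm38.p6, which matched 1583 of 1859 miRNAs, whereas the authors' build is GRCm39, and no coordinates were converted. Within each tissue no ground LAR library had the same miRNA profile as another, and copies across tissues were not looked for.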

Additional observations from a re-analysis of the deposited data

Results flagged for a closer look

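The distance of lung from the mean of the other 12 tissues differed between HGC and VGC for 12 miRNAs in a test of the interaction by edgeR (adjusted p under 0.05, 234 libraries). All were lower in HGC than in VGC, on the log2 scale. The skeletal and heart muscle miRNAs of the miR-378 family were mmu-miR-378a-3p (−1.76), mmu-miR-378b (−1.84) and mmu-miR-378c (−1.81), which differ in few bases and may share reads. The others were mmu-miR-708-5p (−4.14), mmu-miR-6392-5p (−4.76), mmu-miR-203b-3p (−4.17), mmu-miR-184-3p (−2.16), mmu-miR-3065-3p (−4.32), mmu-miR-365-1-5p (−3.68), mmu-miR-3076-5p (−2.73), mmu-miR-204-3p (−2.44) and the neuronal mmu-miR-9-5p (−3.71). Without the 11 pools, to which 4 VGC and no HGC lung libraries belonged, 0 miRNAs were called. The library labelled lung of VGC mouse 3 held 3542 CPM of mmu-miR-9-5p beside a lung median of 25.6 CPM.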

How the results depend on the processing

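Of the values that answer a comparison, 358 equalled or stayed within 1.5 times the reported count under an alternative setting and 60 did not, and the cause was not tested. The 358 include counts of 0 that stayed 0, such as those of tRNA, rRNA and snRNA features against all 12 tissues. They therefore do not measure how stable the counts above 0 were. The 13 miRNAs higher in lung against all 12 tissues became 35 with scaling to the 7-class total, 8 in HGC alone, 3 in VGC alone and 3 in TERM. They were 10 with TMM factors, where mmu-miR-126a-3p, mmu-miR-24-2-5p and mmu-miR-12199-3p fell under the log2 threshold, 9 with DESeq2 and 11 with plate as a term. The replicate block, with the animal in place of arm, also gave 11 miRNAs. Paired by animal, the miRNA share differed from 7 tissues and the tRNA share from 3, and piRNA entries were 1 (4 with the replicate block and without the pools, where lncRNAs were 2). The block changed no other of these counts by over 1.5 times.

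The piRNA entries higher against all 12 were 4 without the pools, 1 with TMM factors, with the 7-class total and in TERM, and 0 in HGC or VGC alone. lncRNAs were 2 with the stricter filter on low counts and 0 in HGC or VGC alone, and the snoRNA was lost in TERM (0). The lower lncRNA 2810404M03Rik was lost (0) with the 7-class total, in VGC, in TERM and with plate, and its difference turned to 1.21 in TERM. Calls per tissue in VGC alone were 146 (BAT), 304 (diaphragm), 278 (GAT), 178 (heart), 255 (MAT), 249 (SCAT) and 305 (thymus). They were 220 for heart in HGC, 311 for BAT and 207 for kidney in TERM, and 924 (GAT), 775 (MAT), 866 (pancreas) and 859 (SCAT) with the 7-class total. The tissues from which a share differed were, in VGC alone, 4 for miRNA, 3 for tRNA, 5 for rRNA, 6 for snRNA, 5 for snoRNA and 3 for lncRNA, in TERM 5 for miRNA, 5 for snRNA and 4 for piRNA, and in HGC 6 for rRNA. For the effective number they were 3 in VGC and 4 in TERM.

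Between arms in lung DESeq2 gave 5 miRNAs, snRNAs were 0 with TMM, the 7-class total, plate or without the pools, and with no filter there were 1 piRNA and 4 lncRNAs. Between ages there were 2 miRNAs without the pools, 2 piRNAs with plate and 1 lncRNA with no filter. The interaction gave 0 without the pools. The age difference of mmu-miR-449c-5p turned to 0.56 in TERM lung without the pools. Outside the pools 175 of 184 libraries were closest to their labelled tissue, and features of few reads such as Fendrr are limited by depth.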

Other observations

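The log2 ratio of mmu-miR-126a-5p to mmu-miR-126a-3p was −4.17 at the lung median (−5.35 to −2.67), lower than the medians of the other tissues, which ran from −3.84 in BAT to −3.25 in brain, and this was not tested. For mmu-miR-351 the ratio of the 5p to the 3p arm was 6.45 in lung and 6.53 in kidney. The neuroendocrine mmu-miR-375-3p was at 984 CPM in lung (98.0 to 3426 CPM), the third level after pancreas with 78241 CPM and another tissue, and higher in lung than in 2 tissues, or 6 without the pools. The epithelial miR-183 cluster summed to 807 CPM, the sixth level (rank 5 without the pools), and the stratified epithelium list to 674 CPM, the ninth, with a range up to 18220 CPM. None of these lists had a member higher in lung than in all 12 tissues.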
